A study of Schizosaccharomyces pombe with 6 samples.

Results

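Isolated short transcribed runs were taken from the densely tiled part of a fission yeast (Schizosaccharomyces pombe) tiling array, on which odd and even probe numbers lie on opposite strands. A probe was called on when its input signal, the total RNA of the same cells, was well above background on all 6 arrays. A run was a stretch of on probes of 1 strand that started and ended on and bridged single off probes. Runs of 3 to 9 same-strand probes were kept when none of the 3 same-strand probes on either side was on. This gave 962 runs out of 3908 runs of at least 3 probes. The others were 859 runs of the same lengths with an on probe within 3 probes, 957 runs of 10 to 19 probes and 1130 runs of 20 or more. The probe tables used here name probes by number alone, so each run is given by its first and last probe, and neither a gene nor a genomic position was assigned. No probe sequence was used here.

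MTREC is a nuclear complex built on the Mtr4-like RNA helicase Mtl1 and the zinc-finger protein Red1, to which other modules attach, among them Red5, a zinc-finger protein that associates with the poly(A)-binding protein Pab2. The complex hands RNAs to the nuclear exosome, the main nuclear 3′ to 5′ RNA-degrading machine. Its known substrates include meiotic mRNAs that are removed during vegetative growth and cryptic unstable transcripts (CUTs), which are non-coding RNAs. CUTs start near transcription start sites in the antisense direction, run antisense within genes, or lie downstream of gene ends in the sense direction. This decay keeps CUTs at low levels in wild-type cells.

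The 3 groups were strains that carried a C-terminal Flag-TEV-protein A (FTP) tag on the genomic copy of 1 subunit, grown vegetatively in rich medium without other treatment. Red1-FTP (p919) and Mtl1-FTP (p920) were h90, leu1-32, ura4D18, ade6-M210 strains with a natNT2 marker at the tagged gene, and Red5-FTP (p1160) was an h+ strain with the leu1-32 and ura4D18 markers and another ade6 allele. RNA that co-purified with the tagged protein (IP, Cy5) was hybridised with input RNA of the same strain (Cy3), with 2 biological replicates per bait and no dye swap. Purified RNA of an untagged strain was not analysed here, so a ratio compares RNAs with each other within a purification. Each value below is log2(IP/input), averaged over the probes of a run and centred on the array's median probe, so 0 is the level of the typical probe.

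Detection of the input differed little among 5 arrays, in which 47.0 to 49.7% of the densely tiled probes were well above background, and reached 57.3% on Mtl1-FTP replicate 2. The IP channel was above background for 55.3 to 67.3% of these probes and for 88.3 to 94.9% of the probes inside the isolated short runs. Of 1577 probes whose names begin with rTm or randTm and not with the tile name, 7.93% were on in all 6 inputs, against 40.7% of the densely tiled probes. The share of isolated short runs that such background detection contributes was not tested. Slide 1 held replicate 1 of all 3 baits, slide 2 the replicates 2 of Red5-FTP and of Red1-FTP, and slide 3 that of Mtl1-FTP alone.

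Isolated short runs had the highest IP/input ratio of the 4 classes of run in each of the 6 purifications. Their mean ratio was 0.88 and 0.79 in the Red1-FTP replicates, 0.69 and 0.64 in the Mtl1-FTP replicates, and 0.78 and 0.69 in the Red5-FTP replicates, which gave 0.75 ± 0.089 (SD, n = 6 arrays). Short runs with a neighbour had a mean of 0.47 ± 0.052, runs of 10 to 19 probes 0.25 ± 0.11 and runs of 20 or more -0.09 ± 0.15 (SD, n = 6 arrays). Single runs of the classes overlapped. Their lower and upper quartiles were -0.19 and 1.60 for isolated short runs and -0.26 and 0.91 for short runs with a neighbour. For runs of 20 or more they were -0.44 and 0.24. The 6 array means of the isolated short runs did not overlap with those of any other class. The difference from runs of 20 or more was 0.84 ± 0.17, from runs of 10 to 19 it was 0.50 ± 0.14 and from short runs with a neighbour it was 0.27 ± 0.060 (SD, n = 6), each above 0 on 6 of 6 arrays. In the exact two-sided sign-flip test over the 6 arrays, all of these reached p = 0.03125, the smallest the design allows, and 0.03125 after adjustment over the 4 class differences tested. The same input signals chose the classes and form the denominator of the ratio, so these p values are not independent of that selection. This exact test treats the 6 arrays as independent, although they were hybridised on 3 slides, and over 3 slides it could not go below p = 0.25. Within slides 1, 2 and 3 the difference was 0.91, 0.71 and 0.87 from runs of 20 or more, 0.47, 0.61 and 0.35 from runs of 10 to 19, and 0.28, 0.29 and 0.22 from short runs with a neighbour. The first off probes beyond the ends of isolated short runs also had high mean ratios, 0.76 and 0.93 by side. A high ratio was thus not particular to the probes inside these runs.

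**Figure D1:**
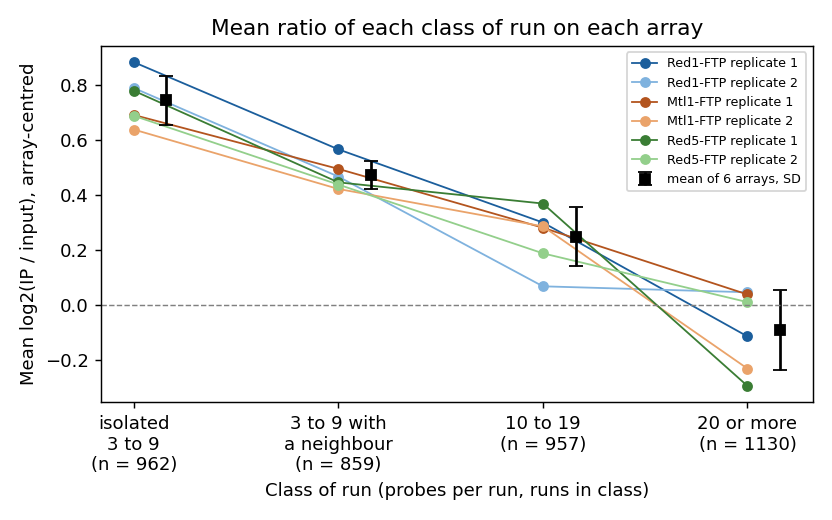
Mean log2(IP/input) of each class of run (vertical axis) on each of the 6 arrays (coloured lines), with the mean and SD over arrays (black squares), by class of run (horizontal axis). The isolated short runs lie between 0.64 and 0.88 on all 6 arrays, while the runs of 20 or more lie between -0.29 and 0.05.

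The isolated short runs were also weaker in total RNA than the long ones, with a median log2 input signal of 7.08 against 8.45 for runs of 20 or more. Their median log2 IP signal was 7.58 against 8.16, so the gap between the classes was smaller in the IP than in the input. Because the input signal both chose the runs and forms the denominator of the ratio, classes were also compared at matched input. Runs were sorted into 20 bins by their input level, taken from the 3 arrays whose replicate number differed. Only bins with at least 10 runs of each class were used, which held 518 to 626 of the 962 isolated short runs per array. The difference between isolated short runs and runs of 20 or more was then 0.76 ± 0.17 (SD, n = 6), above 0 on 6 of 6 arrays (exact sign-flip p = 0.03125, adjusted 0.03125). Within slides 1, 2 and 3 this matched difference was 0.83, 0.64 and 0.80. When the runs were defined on the inputs of the other replicate number and evaluated only on the arrays not used to define them, the mean ratio of isolated short runs was 0.77 and the difference from runs of 20 or more was 0.83.

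About equal shares of the isolated short runs were enriched in the purifications and not enriched. A limma fit with a coefficient for each bait, adjusted over all 3908 runs (Benjamini-Hochberg), called 487 of the 962 enriched in the mean of the 3 baits (50.6%), against a background of 36.2% of all runs. The same fit called 171 depleted (17.8%, background 21.4%), and 304 passed in neither direction. Like the exact test, this fit treats the 6 arrays as independent, although some of them share a slide. The median ratio over the isolated short runs was 0.46, against 0.13 over all runs tested. Among the enriched ones the median was 1.56, compared with 0.91 for all enriched runs, and among the depleted ones -0.75, compared with -0.62. A ratio above the array centre on 6 of 6 arrays was found for 45.0% of isolated short runs (background 32.9%), and below it on 6 of 6 for 14.6% (background 18.8%). The upper tail was wide. A mean ratio above 2 was seen in 176 isolated short runs, or 18.3%, against 7.75% of all runs, and a ratio below -1 in 54, or 5.61%, against 4.04%. The split into enriched and depleted depends on the centre, since 74.0% of the calls were enriched with the median centre, 56.6% with the mean of all probes as centre and 62.8% in the value table the authors deposited.

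**Figure D2:**
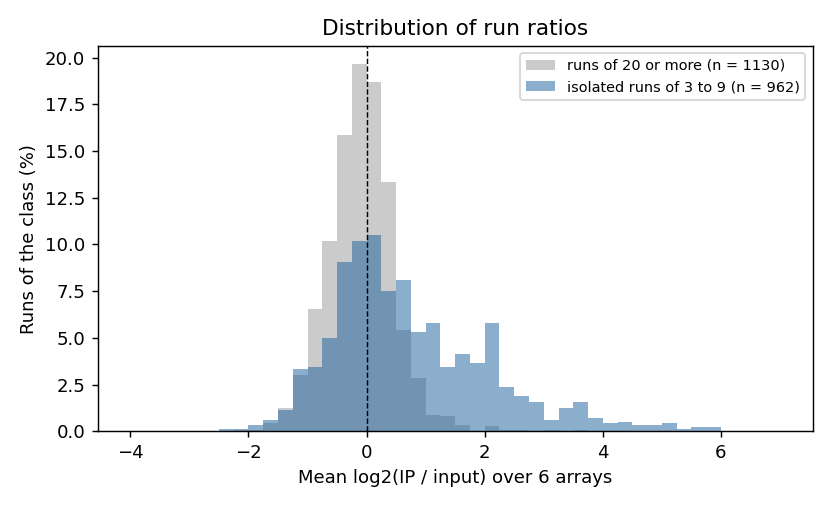
Share of runs (vertical axis, percent of the class) by mean log2(IP/input) over 6 arrays (horizontal axis) for isolated short runs (blue) and runs of 20 or more probes (grey). The isolated short runs reach from -2.27 to 5.92, and 18.3% of them lie above 2.

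The counts were of similar size for each bait taken singly. With Red1-FTP, 379 isolated short runs were enriched (39.4%, background 21.7%) and 69 depleted (7.17%, background 6.65%). For Mtl1-FTP the counts were 355 enriched (36.9%, background 23.3%) and 93 depleted (9.67%, background 7.04%). For Red5-FTP they were 363 enriched (37.7%, background 22.9%) and 96 depleted (9.98%, background 10.2%). Of the isolated short runs, 286 were enriched in all 3 baits taken singly (29.7%, background 15.5%) and 47 were depleted in all 3 (4.89%, background 3.07%).

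The 8 isolated short runs with the highest ratios had mean values from 5.19 to 5.92 and were above 0 on 6 of 6 arrays. Bridged off probes enter these means, and sp40c_49034 and sp40c_146764 held only 2 on probes each. With on probes only, the 8 means ranged from 4.24 (sp40c_2825) to 5.92 (sp40c_2897). The highest, sp40c_2897 to sp40c_2901, is a run of 3 probes on the odd strand. Its ratio was 5.71 and 6.10 on the Red1-FTP arrays, 5.68 and 6.13 on those of Mtl1-FTP and 6.11 and 5.79 on those of Red5-FTP (mean 5.92, SE 0.12, limma adjusted p = 4.81e-07). The baits overlap, and its 3 probes differ more than the arrays do, with mean ratios of 2.79, 7.98 and 6.98. For sp40c_60775 to sp40c_60779 the ratio was 5.58 and 6.24 on the Red1-FTP arrays, 5.93 and 5.95 on those of Mtl1-FTP and 5.49 and 5.44 on those of Red5-FTP (mean 5.77, SE 0.12, adjusted p = 4.81e-07). This run was also abundant in the IP, at a log2 signal of 15.25 against 9.71 in the input, and its IP-detected run covered the same number of probes as the input run, 3. Values for sp40c_49034 to sp40c_49038 were 6.07 and 5.39, 5.28 and 4.82, and 6.34 and 5.61 in Red1-FTP, Mtl1-FTP and Red5-FTP (mean 5.58, SE 0.15, adjusted p = 1.96e-06). On its facing probes, which were quiet in the input, the ratio was similarly high at 5.05.

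The other enriched runs of this group were sp40c_8988 to sp40c_8996, sp40c_48431 to sp40c_48437, sp40c_146764 to sp40c_146768, sp40c_2963 to sp40c_2971 and sp40c_2825 to sp40c_2833. Run sp40c_8988 gave 5.55 and 4.63 on the Red1-FTP arrays, 5.20 and 5.78 on those of Mtl1-FTP and 6.38 and 5.63 on those of Red5-FTP (mean 5.53, SE 0.17, adjusted p = 2.80e-06). Its 5 probes ranged from 4.68 to 6.65 and it lay inside an IP-detected run of 43 probes. Run sp40c_48431 gave 5.36 and 6.11, 5.44 and 6.04, and 4.78 and 5.04 in the same order of baits (mean 5.46, SE 0.14, adjusted p = 1.75e-06). The Red5-FTP arrays were its lowest, whereas 1 of them was the highest for sp40c_8988. For sp40c_146764 the spread was wider, with 6.21 and 5.03, 4.20 and 4.49, and 6.08 and 5.50 (mean 5.25, SE 0.18, adjusted p = 3.55e-06), and the Mtl1-FTP arrays lay below the other 4. None of these bait differences passed adjustment over all runs.

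**Figure D3:**
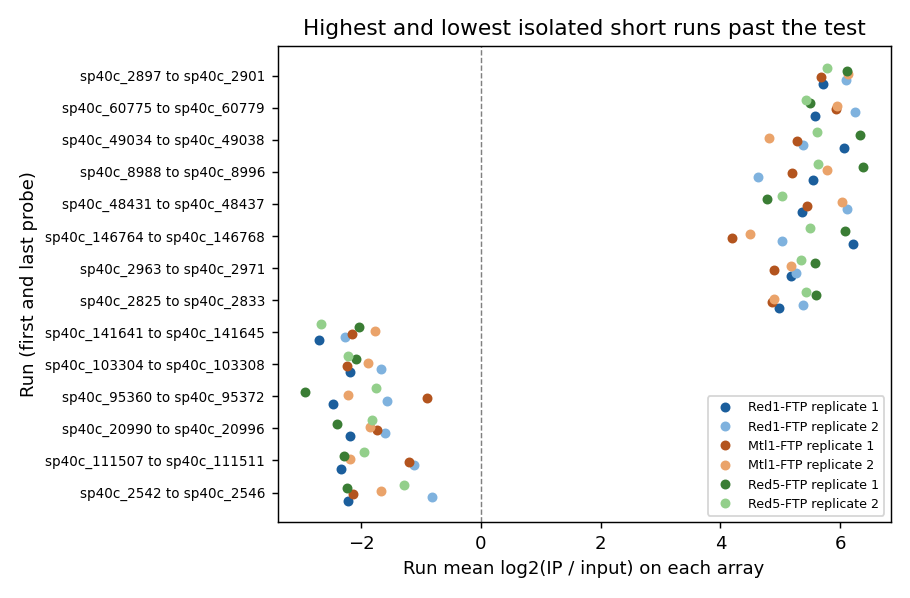
Run mean log2(IP/input) on each of the 6 arrays (horizontal axis, coloured points) for the 8 highest and 6 lowest isolated short runs past the test (vertical axis, first and last probe). All 8 enriched runs lie between 4.20 and 6.38 on every array, and the 6 depleted runs lie below 0 on every array.

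The 4 odd-strand runs sp40c_2825, sp40c_2897, sp40c_2963 and sp40c_3033 lay within a short stretch of probe numbers and had mean ratios of 5.19, 5.92, 5.24 and 4.88. Run sp40c_2825 gave 4.98 and 5.37 in Red1-FTP, 4.86 and 4.90 in Mtl1-FTP, and 5.59 and 5.43 in Red5-FTP (SE 0.10, adjusted p = 4.81e-07). Run sp40c_2963 gave 5.17 and 5.26, 4.89 and 5.17, and 5.58 and 5.35 (SE 0.10, adjusted p = 4.81e-07). By bait mean both were highest with Red5-FTP and lowest with Mtl1-FTP. Run sp40c_2793 lay just before them and sp40c_2931 among them, of 7 probes each, with mean ratios of 3.63 and 3.62. These 6 runs repeat with a step of 138 probe numbers or close to it. The 55 odd-strand probes from sp40c_2793 to sp40c_2901 and those 138 numbers further on had mean ratios that correlated at r = 0.99 and input signals that correlated at r = 0.97 (across probes of the same arrays, which are not independent replicates). The median absolute difference between paired probes was 0.16, within a range from -0.26 to 8.98. The 6 runs are counted as separate members in all counts above and below, although they carry nearly the same values in pairs. Whether the paired runs are separate transcripts was not tested.

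**Figure D4:**
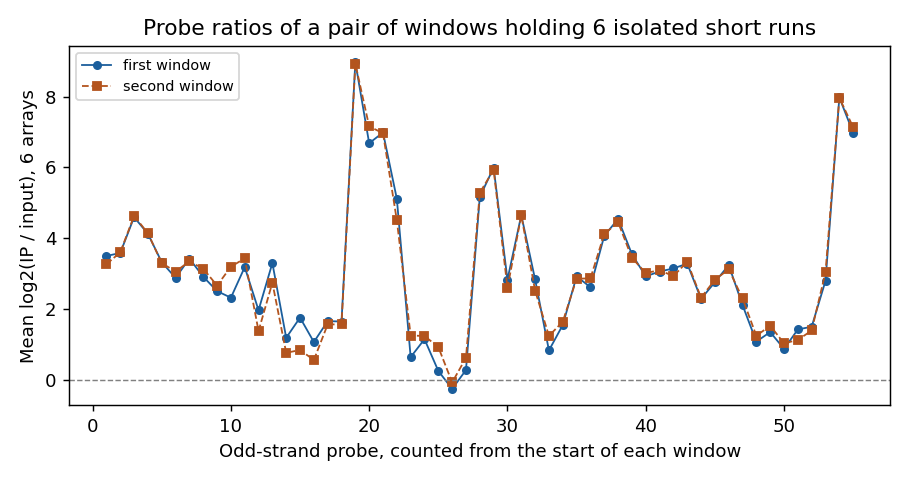
Mean log2(IP/input) over 6 arrays (vertical axis) of the odd-strand probes of a window (blue circles, from sp40c_2793) and of the window 138 probe numbers further on (orange squares), by probe counted from the window start (horizontal axis). The windows peak at 8.98 and 8.93 at the same probe and differ by a median of 0.16.

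The 6 most depleted isolated short runs had mean ratios from -2.27 to -1.73, each below 0 on 6 of 6 arrays. The lowest, sp40c_141641 to sp40c_141645, gave -2.71 and -2.27 on the Red1-FTP arrays, -2.16 and -1.77 on those of Mtl1-FTP and -2.03 and -2.67 on those of Red5-FTP (SE 0.13, adjusted p = 2.01e-05). Its 3 probes were uneven, with mean ratios of -1.92, -0.68 and -4.21, and only the first was strong in the input, the others having log2 inputs of 4.82 and 7.30, and 33.3% of its IP spots were above background. Run sp40c_103304 to sp40c_103308, which faces a transcribed strand, gave -2.19 and -1.67, -2.24 and -1.89, and -2.08 and -2.22 in Red1-FTP, Mtl1-FTP and Red5-FTP (mean -2.05, SE 0.12, adjusted p = 1.83e-05). Its probes did not move together, since their mean ratios were -4.17, -0.50 and -1.48. When only the probe above background in both channels on all arrays was used, this run no longer passed (-0.50, adjusted p = 0.107). Run sp40c_95360 to sp40c_95372 was more even, with 7 probes between -2.37 and -1.68, and gave -2.47 and -1.58, -0.91 and -2.22, and -2.93 and -1.75 (mean -1.98, SE 0.24, adjusted p = 6.13e-04).

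The remaining depleted runs by this rule were sp40c_20990 to sp40c_20996 (mean -1.94, SE 0.13), sp40c_111507 to sp40c_111511 (mean -1.85, SE 0.20) and sp40c_2542 to sp40c_2546 (mean -1.73, SE 0.22). Run sp40c_20990 gave -2.19 and -1.61 in Red1-FTP, -1.73 and -1.86 in Mtl1-FTP, and -2.41 and -1.82 in Red5-FTP, and its 4 probes lay close together, from -2.11 to -1.82. For sp40c_111507 the values were -2.33 and -1.12, -1.21 and -2.20, and -2.30 and -1.96, with probe means from -3.40 to -0.78. For sp40c_2542 they were -2.22 and -0.83, -2.14 and -1.67, and -2.23 and -1.29. Replicates of a bait differed by more than 1 in some of these, and no bait was lowest throughout. Run sp40c_2542 had no probe that was above background in the IP on all 6 arrays, although 38.9% of its IP spots were above background. In all, 73.3% of the IP spots in the 171 depleted runs were above background, compared with 95.7% in the 487 enriched runs. In 17 depleted runs fewer than 50% of the IP spots were, and there the ratio measures the distance to the background rather than an IP level. Of the 6 named, sp40c_141641, sp40c_20990, sp40c_111507 and sp40c_2542 are among these 17. The size of the depletion depended on the background correction, since after normexp with the median centre the 6 lay between -1.12 and -0.71, each still past the test. With only the probes above background in both channels, 949 isolated short runs kept a value, of which 483 were enriched and 156 depleted.

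The isolated short runs with the strongest input were close to the array centre. The mean log2 input was 14.52 for sp40c_103572 to sp40c_103586, an 8-probe run on the even strand. Its ratio was 0.15 and -0.32 on the Red1-FTP arrays, -0.43 and -0.23 on those of Mtl1-FTP and 0.73 and -0.04 on those of Red5-FTP, so its arrays lay on both sides of 0 (mean -0.02, SE 0.14, adjusted p = 0.894). The next by input were sp40c_109293 to sp40c_109301 (input 14.31, mean ratio -0.39, adjusted p = 0.0313) and sp40c_69462 to sp40c_69474 (input 14.23, mean ratio -0.33, adjusted p = 0.0326). Run sp40c_109293 gave -0.38 and -0.74 on the Red1-FTP arrays, -0.77 and -0.36 on those of Mtl1-FTP and 0.20 and -0.28 on those of Red5-FTP. Run sp40c_69462 gave -0.34 and -0.51, -0.52 and -0.36, and 0.08 and -0.33 in that order. In both, Red5-FTP replicate 1 was the only array above 0, and the call was lost with runs of 20 or more as the centre (adjusted p = 0.370 and 0.452), before dye normalization (0.120 and 0.108), after normexp with the median centre (0.411 and 0.501) and with slide as a random block (0.107 and 0.101). For sp40c_69462 it was also lost under the replicate block (0.0549).

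The strongest IP signal among the isolated short runs was found in sp40c_99466 to sp40c_99470, at 16.34 on the log2 scale with an input of 13.63. Its ratio was 1.81 and 2.82 on the Red1-FTP arrays, 2.85 and 4.59 on those of Mtl1-FTP and 1.84 and 3.71 on those of Red5-FTP (mean 2.94, SE 0.32, adjusted p = 3.77e-04). The second replicate was the higher of the pair in each bait, and the spread within baits was as large as that between them. The third by IP signal, after sp40c_60775, was sp40c_13507 to sp40c_13511, with values from 1.89 on a Red5-FTP array to 3.14 on an Mtl1-FTP array (mean 2.64, SE 0.17, adjusted p = 3.42e-05). These 3 runs, all of 3 probes, were short in both channels, with IP-detected runs of 3 to 5 probes.

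No isolated short run passed the test for a difference between a pair of baits. The limma test of each bait difference, adjusted over all 3908 runs, called 0 isolated short runs for Red1-FTP against Mtl1-FTP (background 0.0%), for Red1-FTP against Red5-FTP (background 0.0%) and for Mtl1-FTP against Red5-FTP (background 0.0%). At an unadjusted p under 0.05 the counts were 90 of 962 (9.36%, background 8.09%), 68 (7.07%, background 5.89%) and 102 (10.6%, background 9.14%), and the lowest adjusted p values were 0.156, 0.812 and 0.209. With 2 arrays per bait, differences as large as 2.67 (Red1-FTP minus Red5-FTP) and -2.41 (Mtl1-FTP minus Red5-FTP) did not pass. The SD of the bait difference over isolated short runs was 0.51, 0.51 and 0.57, and its median was 0.22, 0.11 and -0.04.

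The run nearest to passing for Red1-FTP against Mtl1-FTP was sp40c_76274 to sp40c_76278, which gave -0.76 and -0.79 on the Red1-FTP arrays, 0.55 and 0.84 on those of Mtl1-FTP and -0.26 and -0.28 on those of Red5-FTP. The difference was -1.47 (adjusted p = 0.156). For Red1-FTP against Red5-FTP it was sp40c_28117 to sp40c_28123, with 1.53 and 1.37 in Red1-FTP, 0.46 and 0.74 in Mtl1-FTP, and 0.24 and -0.12 in Red5-FTP (difference 1.39, adjusted p = 0.812). For Mtl1-FTP against Red5-FTP it was sp40c_53345 to sp40c_53349, with 2.77 and 2.47, 1.58 and 1.33, and 3.08 and 3.28 (difference -1.72, adjusted p = 0.209). In each of these the replicates of a bait lay closer to each other than to the bait they were compared with, but they were picked as the smallest of 962 p values and did not pass. Across the isolated short runs, replicates of the same bait correlated at 0.824, 0.932 and 0.903, and arrays of different baits at 0.716 to 0.944 (Pearson's r over 962 runs, which share arrays and normalization).

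Most isolated short runs were very short. The length was 3 probes in 412 of them (42.8%), 4 in 170, 5 in 124, 6 in 80, 7 in 73, 8 in 54 and 9 in 49. The mean ratio was 0.58 ± 0.13 for 3 probes, 1.01 ± 0.13 for 5 probes and 0.67 ± 0.24 for 9 probes (SD over 6 arrays). Runs of 4 to 6 probes exceeded runs of 3 by 0.34 ± 0.12 on 6 of 6 arrays, while runs of 7 to 9 exceeded them on 4 of 6. The share enriched was lowest for 3 probes at 43.4% and highest for 5 probes at 62.9%. The share depleted was 22.3% at 3 probes and 8.16% at 9 probes. These are descriptions of subsets with unequal numbers of probes per run and carry no test.

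The distance to the next on probe of the strand went with the ratio. It was 0.55 ± 0.086 where 3 off probes separated the run from the nearest on probe (290 runs), 0.67 ± 0.088 at 4 (177 runs), 0.87 ± 0.097 at 5 to 9 (347 runs) and 0.92 ± 0.12 at 10 or more (148 runs; SD over 6 arrays). The last group exceeded the first by 0.36 ± 0.064, on 6 of 6 arrays. Input level made less difference. In 4 equal groups of isolated short runs, from the weakest to the strongest input, the mean ratio was 0.83, 0.72, 0.77 and 0.66, and the enriched share was 57.3, 49.6, 50.8 and 44.8%. The input signal is the denominator of the ratio, so this order is not independent of it. A bridged off probe was present in 677 of the 962 runs. The mean was 0.70 ± 0.10 in these and 0.85 ± 0.12 in the 285 without one.

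Isolated short runs were spread over both strands and all stretches of probe numbers, with 493 on the odd and 469 on the even strand and 51 to 76 per 10000 probe numbers. The even-strand runs were higher by 0.10 ± 0.048 on 6 of 6 arrays (mean 0.80 against 0.70). A pair of isolated short runs faced each other on opposite strands in 42 cases, which involved 84 runs. Both were enriched in 12 of these pairs, both depleted in 2, and 6 held an enriched and a depleted run. Of all isolated short runs, 50.6% were enriched and 17.8% depleted. Whether the facing pairs depart from these shares was not tested.

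The strand opposite to the runs was transcribed for some runs and quiet for others. At least 80% of the facing probes were on for 344 runs (35.8%), at most 20% were on for 314 (32.6%), and 304 lay between. The enriched share was 54.4% opposite a transcribed strand, 49.7% opposite a quiet strand and 47.4% in the mixed group, and the median ratio was 0.64, 0.47 and 0.28. The order of the means depended on the array. The transcribed group lay at 0.73 ± 0.26 and the quiet group at 0.82 ± 0.20, and the first minus the second ranged from -0.50 to 0.63, above 0 on 2 arrays and below 0 on 4, so these groups did not differ beyond the spread between arrays.

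The facing probes themselves behaved differently in the 2 settings. Opposite a transcribed strand, the run exceeded its facing probes by 0.79 ± 0.16 on 6 of 6 arrays, and the facing strand lay at -0.05 ± 0.14, near the array centre. Opposite a quiet strand, the facing probes lay at 0.74 ± 0.16 and the run exceeded them by 0.08 ± 0.15 only, on 4 of 6 arrays. Facing probes on a quiet strand are at the input background, so their ratio has a background denominator. An example near the median of the first group is sp40c_46885 to sp40c_46889, with 0.99 and 0.87 in Red1-FTP, 0.58 and 0.27 in Mtl1-FTP, and 0.84 and 0.34 in Red5-FTP (mean 0.65, SE 0.11, adjusted p = 3.16e-03), and a facing ratio of 0.26. Its probes had mean ratios of 2.02, -0.33 and 0.25, and it did not pass when the median over the probes was used (0.29, adjusted p = 0.0775). In the second group, sp40c_38500 to sp40c_38516 gave 0.69 and 0.04, 0.58 and 0.74, and 0.66 and 0.10 (mean 0.47, SE 0.13, adjusted p = 0.0221). Its facing ratio was -0.36. The call was lost before dye normalization (adjusted p = 0.236), in the deposited value table (0.137), with the mean of all probes as centre (0.420) and with slide as a random block (0.0597).

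Probes beyond the ends of the runs were grouped by side, with side A toward lower probe numbers on the odd strand and toward higher ones on the even strand, so that each side has the same direction along the transcript for both strands. Which side is 5′ was not determined. The ratio was 0.76 ± 0.14 at the first probe beyond side A and 0.93 ± 0.14 at the first beyond side B (SD over 6 arrays), and 0.54 and 0.55 at the tenth. Most spots of the flanking probes were at the input background, so their ratios have a background denominator, and the mean of all probes lies 0.334 above the median used as 0. The facing strand stayed between 0.23 and 0.48 over the same window. Inside the runs the ratio was 0.58 at the side A end, 0.89 in the middle and 0.70 at the side B end. The end probes are on by rule and the middle ones may be bridged off probes, so ends and middle were not chosen alike. How much of this shape comes from how runs were drawn was not tested.

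**Figure D5:**
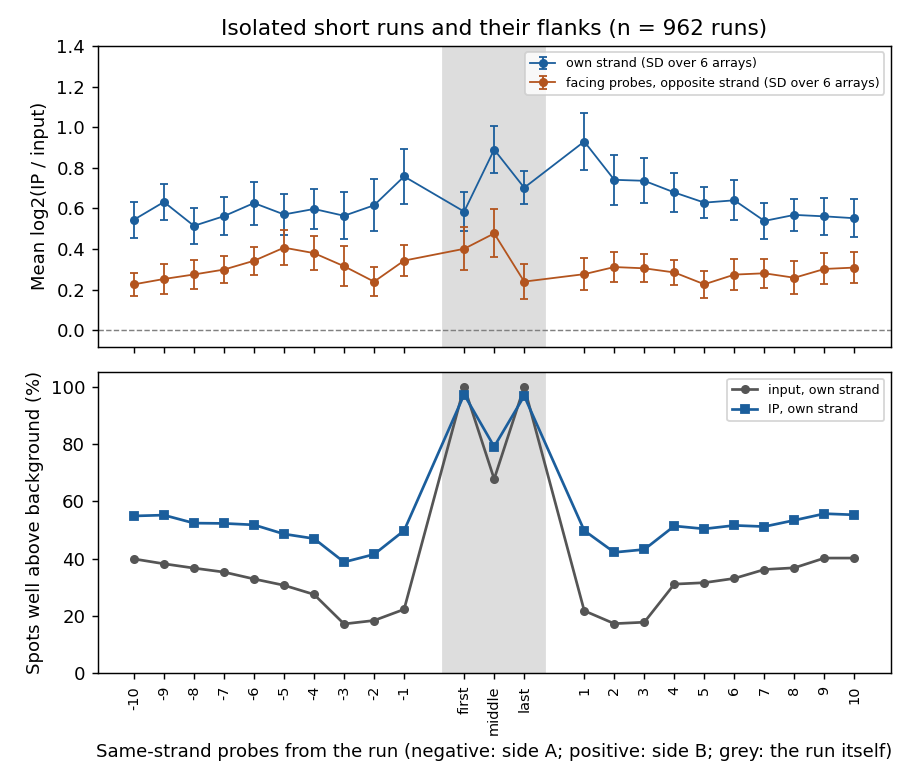
Top: mean log2(IP/input) over 962 isolated short runs at the run and at 10 same-strand probes on each side (horizontal axis), for the own strand (blue) and the facing probes (orange), with SD over 6 arrays. Bottom: percent of spots well above background in input (grey) and IP (blue). Input detection falls to 17.2 to 22.3% in the first 3 flanking probes, which the rule required to be off in at least 1 input. IP detection falls as well, from 97.3 and 96.8% at the run ends to 38.8 to 49.8% in these probes.

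In the 3 probes on either side, which the rule required to be off in at least 1 input, 17.2 to 22.3% of input spots and 38.8 to 49.8% of IP spots were above background. Runs of IP-detected probes, which are those above background in the IP on all 6 arrays, were drawn with the same bridging. The longest one overlapping each input run was taken. The rule limits the length of the input run and requires off flanks, and the IP channel detected more probes over the whole tile, so an IP run longer than the input run follows in part from the selection. The median was 6 probes for an input median of 4. The IP run was at least 3 probes longer in 307 isolated short runs (31.9%). It reached 10 probes or more in 231 (24.0%) and 20 or more in 68 (7.07%). Short runs with a neighbour had larger shares, 49.2, 42.4 and 18.7% in that order. An IP run at least 3 probes longer was found for 28.7% of runs of 10 to 19 and 17.3% of runs of 20 or more. In 13 isolated short runs no probe was above background in the IP on all 6 arrays. The IP run went past the side A end in 36.8% of isolated short runs and past the side B end in 36.0%. In short runs with a neighbour these shares were 39.2 and 39.1%.

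Runs inside long IP stretches were mostly enriched, although the IP signal is the numerator of that call. Of the 231 isolated short runs with an IP run of 10 or more probes, 184 were enriched and 3 depleted. Those with an IP run of 10 to 19 probes had a mean ratio of 1.62 ± 0.17 and those with 20 or more 1.49 ± 0.17, against 0.68 ± 0.080 with an IP run of 3 to 9 (SD over 6 arrays). The longest IP run, 76 probes, held sp40c_128200 to sp40c_128212, a 7-probe run chosen for this length after its values were seen, with a mean ratio of 1.05 (SE 0.10, adjusted p = 1.98e-04). The IP run went 68 probes past the side A end and 1 past the other end. The next, of 75 probes, held sp40c_17336 to sp40c_17340, with a mean ratio of 1.99 (SE 0.26, adjusted p = 8.73e-04). In 19 cases an IP run held more than 1 isolated short run, which concerned 39 runs.

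Long transcripts nearby went with a somewhat different level. With a same-strand run of 10 or more within 10 probes beyond side A only, 128 isolated short runs had a mean ratio of 0.61 ± 0.10, and beyond side B only 135 had 0.55 ± 0.18. The 673 with none on their strand had 0.82 ± 0.098. Among runs that faced a quiet strand, 71 with an opposite-strand run of 10 or more beyond side A only had a mean of 1.19 ± 0.37 and an enriched share of 62.0%, and 44 with one beyond side B only had 0.55 ± 0.24 and 31.8% (SD over 6 arrays). The lowest array of the first group was 0.68 and the highest of the second 0.83, so the array values overlap. With no run of 10 or more on either strand, 101 runs had 0.66 ± 0.12.

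The runs just outside the rule had values close to those just inside it. Isolated runs of 2 probes had a mean ratio of 0.57 ± 0.16 (461 runs) and those of 3 probes 0.58 ± 0.13. At the upper limit, isolated runs of 9 probes had 0.67 ± 0.24 and those of 10 probes 0.63 ± 0.19 (51 runs). Runs of 3 to 9 probes whose nearest on probe followed after 2 off probes, which are the short runs with a neighbour, had 0.47 ± 0.052, and those at the required 3 off probes 0.55 ± 0.086 (SD over 6 arrays).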

How the data were processed

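RNA purified with a tagged MTREC subunit (Cy5) and input RNA (Cy3) were hybridised to 6 custom 2-colour Agilent arrays, and groups and replicates were taken from the labels. The authors deposited 1 Agilent Feature Extraction (10.7.3.1, submitters' processing notes) table per array. The processed intensities the authors deposited are background-subtracted and dye-normalized, and the deposited median and background intensities are as scanned. The deposited log10 ratio and its p-value come from the same software, as do the deposited flags for signal above background and for outliers, which are coded as other values. The deposited value table holds log2 IP over input, set to 0 where the p-value is 0.05 or more (53.9 to 63.8% of probes).

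Log2 of the processed Cy5 over Cy3 intensity was taken per spot, outlier spots were left out, and the median of the non-control probes was subtracted from each array (-0.33 to -0.12 before this step). Arrays have no read depth, and their number limits the precision. Run means were fitted with limma 3.58.1 (R 4.3.3) with 1 coefficient per bait, over all 3908 runs of at least 3 probes. No term for the slide was included. With slide as a random block, the estimated correlation within slides was 0.532. Enrichment is the mean of the bait coefficients against 0, at an adjusted p under 0.05 (Benjamini-Hochberg). For differences between classes of run, all 64 patterns of signs over the 6 arrays were enumerated (exact two-sided test). Matched bins needed at least 10 runs of each class, which kept 518 to 626 isolated short runs per array. The fit was also run on simulated data in which the 6 arrays were independent, which cannot show the effect of shared slides.

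Runs named in the text are the 8 highest and 6 lowest past the test with the same sign on 6 of 6 arrays, the run nearest to passing for each pair of baits, the 3 highest in input and in IP, and 1 near the median of each opposite-strand group. The runs, classes and tests were chosen with earlier results of these data known. Replicate differences correlated at 0.735 between Red1-FTP and Red5-FTP, whose arrays share slides 1 and 2, at -0.540 between Red1-FTP and Mtl1-FTP and at -0.627 between Mtl1-FTP and Red5-FTP, so the numbers were not taken to pair the arrays of all 3 baits. Alternatives changed the signals, the centre, the run value, the run definition, the threshold and the blocks, and left out each array.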

Additional observations from a re-analysis of the deposited data

Results flagged for a closer look

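The run sp40c_76274 to sp40c_76278 stands out because both Red1-FTP arrays (-0.76 and -0.79) and both Red5-FTP arrays (-0.26 and -0.28) lay below the array centre while both Mtl1-FTP arrays (0.55 and 0.84) lay above it. The difference between Red1-FTP and Mtl1-FTP was -1.47 and that between Mtl1-FTP and Red5-FTP 0.97. Neither passed the limma test after adjustment over all runs (adjusted p = 0.156 and 0.359). Such opposite signs in both arrays of a pair of baits occurred in 35 isolated short runs for Red1-FTP and Mtl1-FTP (3.64%, against 5.35% of all runs), in 18 for Red1-FTP and Red5-FTP (1.87%, against 4.45%) and in 37 for Mtl1-FTP and Red5-FTP (3.85%, against 6.22%).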

How the results depend on the processing

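The 4 class differences were positive under every alternative run. Leaving out an array gave 0.788 to 0.872 against runs of 20 or more, 0.451 to 0.525 against runs of 10 to 19, 0.260 to 0.288 against short runs with a neighbour and 0.709 to 0.793 at matched input, and with 5 arrays the exact test cannot go below 0.0625. The mean ratio was 0.545 after normexp and loess, 0.529 in the deposited value table, 0.412 with the mean of all probes as centre (a shift of 0.334), 0.939 with runs of 20 or more as centre (a shift of -0.193), 0.652 with on probes only, 0.850 without bridging and 0.885 with 5 off probes on either side. Without bridging 285 isolated short runs were left, of which 144 were enriched and 39 depleted, and with 5 off probes 495 were left, of which 264 and 86 were. The depleted count was 109 after normexp with the median centre, 299 with the mean of all probes as centre and 54 with a log2 ratio over 1 also required. In these last 3 the cause was not tested, beyond the stricter threshold itself. Counts of enriched runs otherwise stayed between 340 and 553. Without 1 array, 436 to 492 were enriched and 133 to 180 depleted. With the replicate number as a block (replicate block), which for Red1-FTP and Red5-FTP coincides with slides 1 and 2, 488 were enriched and 164 depleted. Slide as a random block gave 437 and 128, and slide as a fixed block, chosen after seeing the data and leaving 1 residual degree of freedom, 553 and 234. No setting called a bait difference among isolated short runs.

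The sign of runs near the array centre was not stable. For sp40c_76274 the mean ratio turned to 0.11 with signals before dye normalization, 0.041 after normexp with the median centre and 0.076 with runs of 20 or more as centre. For sp40c_103572 it turned to 0.19 after normexp with the median centre, 0.0021 after normexp and loess, 0.17 with runs of 20 or more as centre, 0.056 without Red1-FTP replicate 2, 0.010 without Mtl1-FTP replicate 1 and 0.11 without Red5-FTP replicate 2, within a range of -0.15 to 0.11 over the arrays left out. Runs at the edge of input detection, an unknown share of which is background, limit what these arrays can show.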

Other observations

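The paired windows of probes around sp40c_2825 and sp40c_2963 also agree inside single runs. The 5 probes of sp40c_2825 to sp40c_2833 had mean ratios of 1.65, 1.64, 8.98, 6.69 and 6.99, and those of sp40c_2963 to sp40c_2971 had 1.56, 1.56, 8.93, 7.16 and 6.97. The third probe of each was off in the input and is bridged by the rule. On the even strand, 2 isolated short runs lay outside the windows. Before the first window, sp40c_2716 to sp40c_2720 had a mean ratio of -1.60 (limma adjusted p = 0.00115). Past the end of the second, sp40c_3060 to sp40c_3064 had one of 3.32 (limma adjusted p = 9.36e-05). These runs were picked for their place after the values were seen.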
